A study of Mus musculus with 16 samples.

Results

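The voltage-gated sodium channel genes examined here were 9 of the 22609 gene symbols counted in sorted mouse sensory neurons. They were chosen by symbol, as the alpha subunits *Scn1a*, *Scn2a1*, *Scn3a*, *Scn8a*, *Scn9a*, *Scn10a* and *Scn11a* and the beta subunits *Scn2b* and *Scn4b*, so no measured value entered the choice. All 9 had reads, and all 9 passed the filter on low counts in each of the 6 comparisons of 2 ganglia. RNA-seq was performed on Pirt/TdTomato+ cells, which were sorted by FACS in 2 cycles from trigeminal ganglia (TG), nodose/jugular ganglia (NG/JG), lumbar L3–L5 dorsal root ganglia (DRG) and thoracolumbar T10-L1 DRG, with 4 libraries for each of the 4 ganglia and 16 in all. The mice of every group were naive young adults on C57BL/6J that carried Pirt-cre and a Rosa26 LSL-tdTomato reporter, in which Cre from the sensory neuron gene *Pirt* switches on the red fluorescent protein TdTomato, and cells of low TdTomato were left out of the gate. The labels give all the mice as male, but all 16 libraries held between 1279 and 8362 reads on *Xist*, the RNA of the inactive X chromosome, and 0 reads on the 13 counted genes of chromosome Y, in every ganglion alike.

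A voltage-gated sodium channel is built around a large alpha subunit, whose pore-lining segments open when the membrane depolarizes and let sodium in, which starts and carries the action potential. Smaller beta subunits cross the membrane once and adjust the gating of the alpha subunit and its place in the membrane. Peripheral sensory neurons are known for a pair of alpha subunits that resist the blocker tetrodotoxin, Nav1.8 from *Scn10a* and Nav1.9 from *Scn11a*, both found mainly in nociceptors, and for Nav1.7 from *Scn9a*, which amplifies small depolarizations near threshold. Nav1.6 from *Scn8a* and Nav1.1 from *Scn1a* are the usual channels of large myelinated neurons, Nav1.2 from *Scn2a1* is a channel of central axons, and Nav1.3 from *Scn3a* is mainly embryonic.

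The difference in the sensitivity to tetrodotoxin can be read in the genes. The coding stretch of 39 bases around the pore loop of the first domain is shown for 6 of the 7 alpha subunits, on the coding strand from 5′ to 3′, and capitals mark the codon of the residue known to set the affinity for the blocker.
Scn2a1: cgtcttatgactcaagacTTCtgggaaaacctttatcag
Scn3a: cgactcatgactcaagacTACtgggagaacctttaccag
Scn8a: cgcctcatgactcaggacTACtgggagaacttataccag
Scn9a: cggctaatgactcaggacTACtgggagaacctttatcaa
Scn10a: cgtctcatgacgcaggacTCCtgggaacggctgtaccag
Scn11a: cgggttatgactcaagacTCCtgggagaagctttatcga
The codon was TTC (phenylalanine) in *Scn2a1*, TAC (tyrosine) in *Scn3a*, *Scn8a* and *Scn9a*, and TCC (serine) in *Scn10a* and *Scn11a*. An aromatic residue there goes with sensitivity to tetrodotoxin and serine with resistance. These sequences were read from the GENCODE transcripts of the NCBIM37 assembly, which is that of mm9. That of *Scn10a* lies in coding exon sequence at chr9:119575487-119575525 on the minus strand, and that of *Scn9a* at chr2:66387040-66387078 on the minus strand.

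In the same assembly the members form several clusters and a single locus. *Scn3a*, *Scn2a1*, *Scn1a* and *Scn9a* lie on chromosome 2, from chr2:65295175-65405684 to chr2:66318137-66473009. *Scn10a* at chr9:119517584-119603478 and *Scn11a* at chr9:119662881-119734574 are neighbours on chromosome 9, both on the minus strand. The beta subunit genes *Scn2b* at chr9:44925959-44938153 and *Scn4b* at chr9:44946520-44962235 are neighbours elsewhere on chromosome 9, both on the plus strand, and *Scn8a* lies alone at chr15:100785829-100876360. *Scn9a* shared 180 bases of exon, 1.68% of its exon length, with the antisense transcript *Gm13629*, and without a stated strand setting reads there cannot be told apart.

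The libraries held 4735624 to 13333318 reads on genes, and a floor of 3 counts stood for 0.225 to 0.633 CPM (the count scaled to the summed reads on genes of its library), a bound that covers counting error only. The labelled cell type was checked on 8 sensory neuron markers, among them *Pirt* and *Avil*, which were present in every ganglion. Their summed level was 1967 to 3374 CPM in T10-L1 DRG, 1171 to 10500.5 CPM in L3–L5 DRG, 1317 to 4579 CPM in NG/JG and 855 to 3326 CPM in TG. It was lowest in TG library 1, L3–L5 DRG library 4 and NG/JG library 1, and each count of calls below was also made without these 3 libraries. Schwann cell markers summed to 12602 to 25807 CPM in T10-L1 DRG, 8011 to 45540.1 CPM in L3–L5 DRG, 8193 to 29459.8 CPM in NG/JG and 22956 to 53596 CPM in TG, with the highest values in TG library 1 and L3–L5 DRG library 4. Oligodendrocyte markers reached 1642 CPM in TG library 1, and macrophage markers 10929 CPM in T10-L1 DRG library 4. Neutrophil markers were at 76.4 to 1019.9 CPM in T10-L1 DRG, 5.06 to 526 CPM in L3–L5 DRG, 0.341 to 31.9 CPM in NG/JG and 0 to 39.3 CPM in TG, and the part of these other cells in the results was not tested. The 7 nociceptor markers summed to 336, 438, 768 and 5.48 CPM in NG/JG libraries 1 to 4, against 664 to 2184 CPM in T10-L1 DRG, 573 to 7667 CPM in L3–L5 DRG and 587 to 2939 CPM in TG. The labels do not say that the libraries came from separate animals, so that p-values measure the spread between these libraries, which may be technical. Fewer neurons of a type and less RNA per neuron cannot be told apart in such bulk libraries.

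*Scn10a*, the gene of Nav1.8, had the highest level per exon length of the 9 members, with a mean of 43.0 RPKM (the CPM divided by the exon length in kilobases) over the 16 libraries. Its level was 262, 1266, 1207 and 41.0 CPM in L3–L5 DRG libraries 1 to 4, and 81.6, 253, 516 and 192 CPM in those of T10-L1 DRG. In NG/JG it was 13.9, 145, 106 and 21.7 CPM, and in TG 49.5, 91.1, 67.9 and 71.5 CPM. L3–L5 DRG libraries 2 and 3 stood highest of all 16, while L3–L5 DRG library 4 was below every TG library, so that the CPM values of the groups overlapped in every pair of ganglia. The group means were 694 ± 634 CPM (SD, n = 4) in L3–L5 DRG, 261 ± 185 CPM (SD, n = 4) in T10-L1 DRG, 71.7 ± 64.4 CPM (SD, n = 4) in NG/JG and 70.0 ± 17.0 CPM (SD, n = 4) in TG. In edgeR's quasi-likelihood test *Scn10a* was lower in TG than in L3–L5 DRG without passing the adjusted threshold (log2 fold change -2.95 ± 0.87 (SE), unadjusted p = 0.00620, adjusted p = 0.114). The same held for TG against T10-L1 DRG (log2 fold change -1.52 ± 0.52 (SE), unadjusted p = 0.0139, adjusted p = 0.113 by edgeR). For NG/JG the values were -3.21 ± 1.07 against L3–L5 DRG and -1.84 ± 0.79 against T10-L1 DRG on the log2 scale, with edgeR's adjusted p = 0.442 and 0.7999. The summed nociceptor markers were also below every DRG library in 3 of the 4 NG/JG libraries, and their part in the *Scn10a* and *Scn11a* values was not tested. The 2 DRG levels were not separated (log2 fold change 1.40 ± 0.92 (SE), adjusted p = 0.811 by edgeR), nor were TG and NG/JG (log2 fold change 0.23 ± 0.75 (SE), adjusted p = 0.974 by edgeR). DESeq2 called *Scn10a* lower in TG against L3–L5 DRG (adjusted p = 0.0115) and against T10-L1 DRG (adjusted p = 0.0475). Over all the alternatives tried, the adjusted p ranged from 0.0109 to 0.879 for TG against L3–L5 DRG and from 0.0475 to 0.526 for TG against T10-L1 DRG, and the direction was the same in each. Scaled to the summed sensory neuron markers in place of TMM, the log2 fold change of TG from L3–L5 DRG shrank to -1.22 ± 0.97 (adjusted p = 0.879 by edgeR), and that of L3–L5 from T10-L1 DRG to -0.021 ± 0.72. Per 1000 CPM of those markers *Scn10a* was at 35.0 to 139.8 CPM in L3–L5 DRG and 41.5 to 153 CPM in T10-L1 DRG. It was at 7.37 to 31.9 CPM in NG/JG and 20.4 to 57.9 CPM in TG. On this scale, chosen after seeing the data, NG/JG lay below both DRG levels and TG overlapped both. The share of all genes that separate in this way was not counted, so this separation has no background beside it. For NG/JG no alternative, by edgeR or DESeq2, passed the adjusted threshold. The adjusted p ranged from 0.0775 to 0.9998 against L3–L5 DRG and from 0.242 to 0.9999 against T10-L1 DRG. Without the 3 libraries of lowest neuron markers, edgeR's test gave -3.25 for TG against L3–L5 DRG on the log2 scale (adjusted p = 0.0109).

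*Scn11a*, the gene of Nav1.9, which carries a persistent current near the resting potential, had a like order of ganglia. Its level was 99.3, 547, 361 and 22.0 CPM in L3–L5 DRG libraries 1 to 4 and 18.5, 156, 114 and 128 CPM in T10-L1 DRG. In NG/JG it was 0.974, 65.3, 43.4 and 11.6 CPM and in TG 1.14, 46.0, 15.8 and 22.8 CPM. NG/JG library 1 and TG library 1 held only 7 and 9 reads on the gene, and the CPM values of the groups again overlapped in each pair. Against L3–L5 DRG, edgeR gave TG a log2 fold change -3.17 ± 1.11 (SE) (unadjusted p = 0.0161, adjusted p = 0.158) and NG/JG a log2 fold change -3.01 ± 1.19 (SE) (unadjusted p = 0.0297, adjusted p = 0.679). DESeq2 called the first of these (adjusted p = 0.0296), as did edgeR without the 3 libraries of lowest neuron markers (adjusted p = 0.0170, where *Scn10a* and *Scn11a* were the 2 members of 9 called and 19.4% of all genes were), and the range over the alternatives was 0.0170 to 0.879. Against T10-L1 DRG the log2 fold changes were -1.85 ± 0.91 for TG and -1.75 ± 1.05 for NG/JG, with edgeR's adjusted p = 0.278 and 0.9999. Scaled to the sensory neuron markers, the log2 fold change of TG from L3–L5 DRG was -1.81 ± 1.09 and that of L3–L5 from T10-L1 DRG -0.13 ± 0.74.

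**Figure D1:**
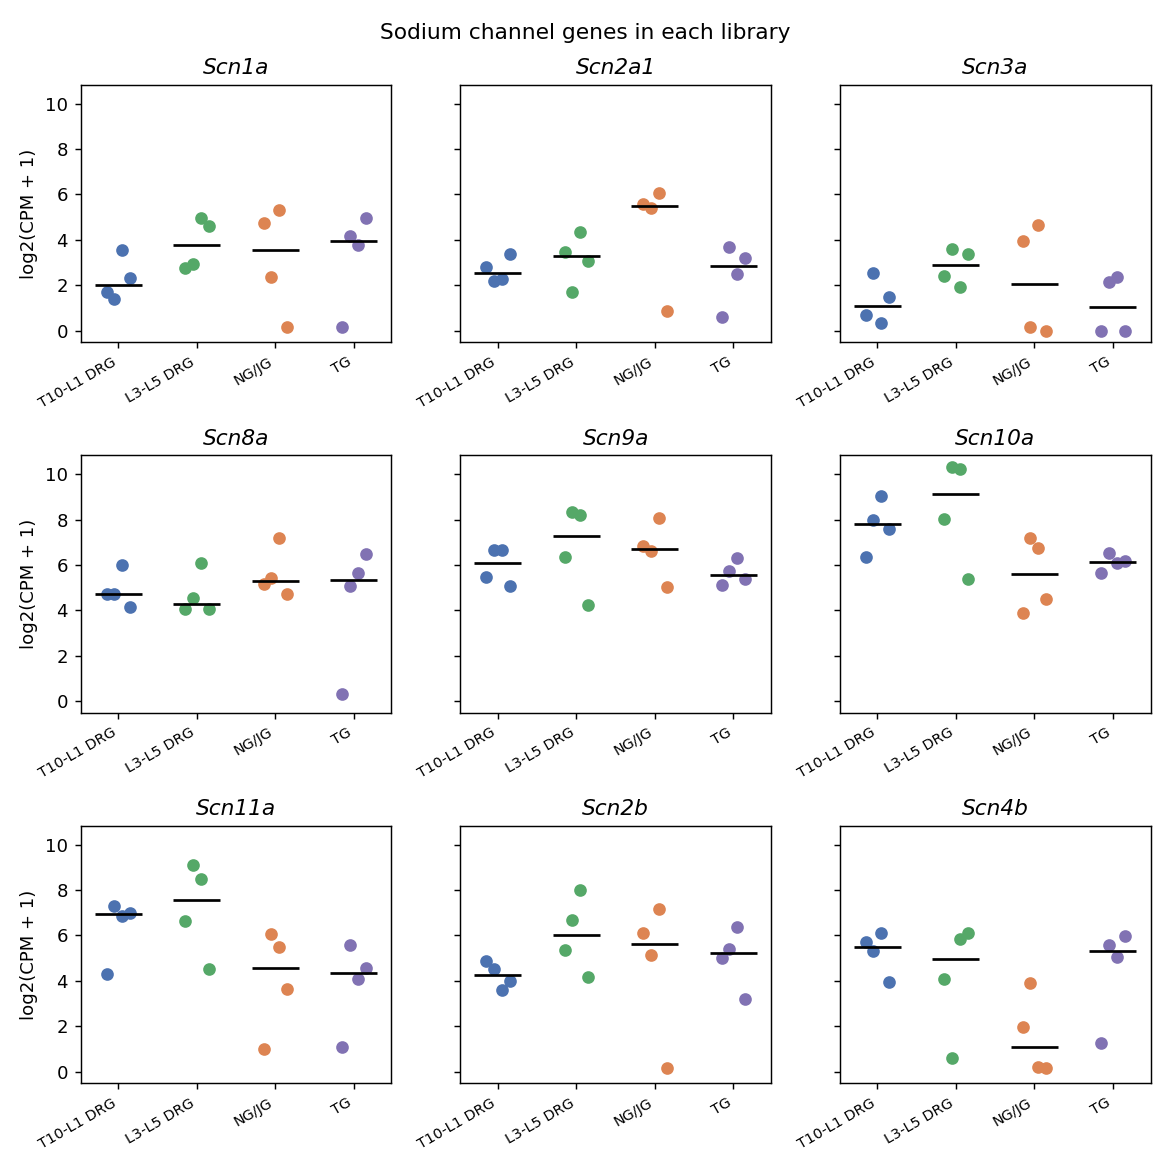
Level of each of the 9 sodium channel genes, as log2(CPM + 1), in the 4 libraries (points, in the order 1 to 4) of each ganglion, with the median as a line. L3–L5 DRG libraries 2 and 3 carry the highest *Scn10a* and *Scn11a*, and 3 of the 4 NG/JG libraries carry the highest *Scn2a1*.

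The levels of *Scn10a* and *Scn11a* moved together over the 16 libraries, with Pearson's r = 0.90 and Spearman's rho = 0.95 on log2(CPM + 1) after TMM scaling, the highest r among the 36 pairs of members. This is a description, since each point also carries its library's content of neurons: on the same scale the r with the summed sensory neuron markers was 0.72 for *Scn10a*, 0.75 for *Scn11a* and 0.77 for *Scn9a*. Both genes are shown with the 250 bases before their start in RefSeq because they moved together. The distance between these starts differs from that in the GENCODE positions above, so a start used here can differ from the one given there. The sequences are those of RefSeq on GRCm38.p6, at chr9:119719033-119719282 and chr9:119825457-119825706, on the minus strand, and capitals mark the longest run of bases that both windows share.
Scn10a promoter: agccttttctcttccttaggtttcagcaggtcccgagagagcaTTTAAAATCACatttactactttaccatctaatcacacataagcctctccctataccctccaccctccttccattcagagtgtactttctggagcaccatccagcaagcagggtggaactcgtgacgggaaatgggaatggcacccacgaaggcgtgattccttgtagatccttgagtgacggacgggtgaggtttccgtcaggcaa
Scn11a promoter: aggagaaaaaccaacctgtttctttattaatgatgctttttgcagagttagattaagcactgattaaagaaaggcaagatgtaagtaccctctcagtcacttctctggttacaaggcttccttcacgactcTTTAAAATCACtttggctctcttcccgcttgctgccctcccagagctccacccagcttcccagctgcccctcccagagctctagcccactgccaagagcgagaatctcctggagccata
The shared run, TTTAAAATCAC, begins 207 bases before the start of *Scn10a* and 119 bases before that of *Scn11a*. Searched on both strands, it was in 8 of 32851 RefSeq promoter windows (0.0244%), and 8 of the 9 members had such a window, of which 2 held it. It was picked because these windows share it, and a match is no evidence of a binding site.

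The make-up of the alpha subunits within each library is a ratio of genes measured in the same library. Of the summed RPKM of the 7 alpha members, *Scn10a* took the largest share in 14 of 16 libraries, and *Scn9a* in the other 2, NG/JG libraries 1 and 3. The tetrodotoxin-resistant pair *Scn10a* and *Scn11a* together made up 84.5, 89.7, 86.8 and 60.7% in L3–L5 DRG libraries 1 to 4 and 69.2, 84.3, 86.2 and 89.7% in T10-L1 DRG. In NG/JG the pair made up 9.73, 66.2, 32.6 and 51.2%, and in TG 71.0, 67.7, 50.4 and 50.8%. The means were 82.4 ± 9.04% (SD, n = 4) in T10-L1 DRG, 80.4 ± 13.3% in L3–L5 DRG, 59.96 ± 10.9% in TG and 39.9 ± 24.4% in NG/JG. The ranges overlapped between DRG and the cranial ganglia through L3–L5 DRG library 4 and T10-L1 DRG library 1. These had the lowest neuron markers of their ganglion, 1171 and 1967 CPM. T10-L1 DRG library 4, at 1990 CPM of those markers, had a share of 89.7%. TG library 1, the lowest in those markers at 855 CPM, had the highest share of TG, 71.0%. These shares were not tested, nor was the part of the neuron markers in them.

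**Figure D2:**
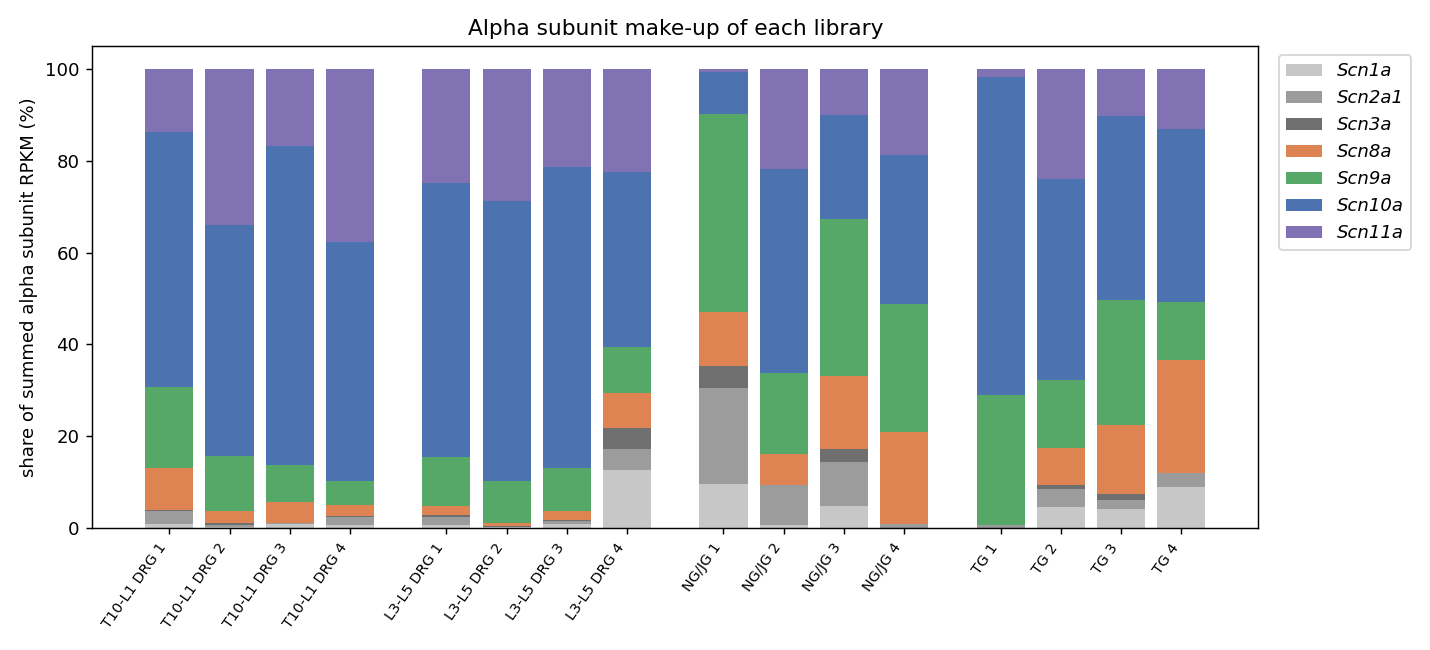
Share of each alpha subunit in the summed RPKM of the 7 alpha members (vertical axis, percent) in each of the 16 libraries, grouped by ganglion. *Scn10a* (blue) and *Scn11a* (purple) fill 60.7% to 89.7% of the bars of the 8 DRG libraries, and *Scn9a* (green) is the largest part in NG/JG libraries 1 and 3.

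*Scn9a*, the gene of Nav1.7, had reads in every library. It was at 43.9, 101, 101 and 33.1 CPM in T10-L1 DRG libraries 1 to 4 and at 79.7, 324, 296 and 17.7 CPM in L3–L5 DRG. In NG/JG it was at 112, 97.3, 270.3 and 31.4 CPM and in TG at 34.0, 51.7, 77.3 and 40.0 CPM. All 16 libraries had 84 or more reads on it, and its 6 log2 fold changes lay between -1.45 and 1.37, with edgeR's adjusted p between 0.351 and 0.9999. Set against *Scn9a* in the same library, the RPKM of *Scn10a* was 5.53, 6.59, 6.86 and 3.89 times as high in L3–L5 DRG and 3.13, 4.22, 8.59 and 9.78 times in T10-L1 DRG. The ratio was 2.45, 2.96, 1.48 and 3.00 in TG and 0.209, 2.52, 0.657 and 1.16 in NG/JG. The lowest DRG ratio, 3.13, was only just above the highest ratio of TG and NG/JG, 3.00. The ratio was picked after the values were seen and has no test. How many other ratios of genes separate the ganglia in this way was not counted, and the part of neuron content was not tested.

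**Figure D3:**
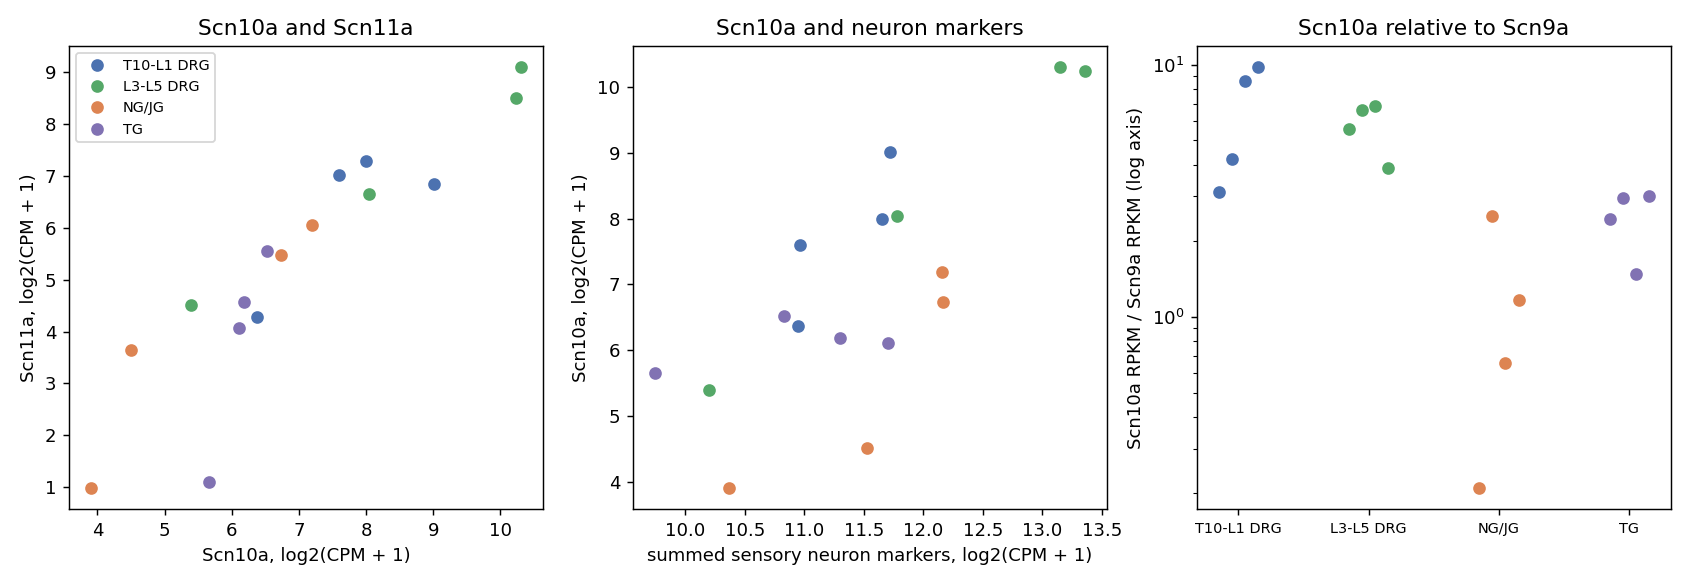
Left, *Scn11a* against *Scn10a*, and centre, *Scn10a* against the summed sensory neuron markers, all as log2(CPM + 1), with 1 point per library coloured by ganglion. Right, the ratio of *Scn10a* to *Scn9a* RPKM on a log axis, where the 8 DRG libraries (3.13 to 9.78) lie above the 8 libraries of NG/JG and TG (0.209 to 3.00). This ratio was picked after the values were seen and has no test and no background beside it.

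*Scn2a1*, the gene of Nav1.2, was highest in NG/JG, at 46.6, 41.5, 66.5 and 0.827 CPM in libraries 1 to 4. It was at 5.96, 3.62, 3.78 and 9.45 CPM in T10-L1 DRG, and at 10.1, 2.28, 19.1 and 7.39 CPM in L3–L5 DRG. In TG it was at 0.508, 12.0, 4.64 and 8.08 CPM. NG/JG libraries 1 to 3 exceeded all 12 libraries of the other ganglia, while NG/JG library 4, which also had the lowest nociceptor markers, was below all of them but TG library 1. By edgeR the difference of NG/JG from T10-L1 DRG was the one below an unadjusted p of 0.05 (log2 fold change 2.76 ± 1.21 (SE), unadjusted p = 0.0460, adjusted p = 0.823), and no difference of *Scn2a1* passed the adjusted threshold under any alternative tried.

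*Scn8a*, the gene of Nav1.6 at nodes of Ranvier, was at 25.7, 24.9, 63.6 and 16.7 CPM in T10-L1 DRG and at 15.7, 22.2, 67.7 and 15.6 CPM in L3–L5 DRG. It was at 34.4, 41.4, 144 and 25.5 CPM in NG/JG and at 0.254, 32.3, 48.5 and 89.4 CPM in TG, where library 1 had 2 reads. Library 3 was the highest in both DRG levels and in NG/JG, and no pair of ganglia was separated (edgeR's adjusted p from 0.719 to 0.9999). *Scn1a*, the gene of Nav1.1, ranged from 1.62 to 10.8 CPM in T10-L1 DRG, from 5.74 to 30.3 CPM in L3–L5 DRG, from 0.103 to 38.7 CPM in NG/JG and from 0.127 to 29.9 CPM in TG. Its lowest values in NG/JG and TG were a single read each, in NG/JG library 4 and TG library 1. Without TG library 1, edgeR called *Scn1a* higher in TG than in T10-L1 DRG (log2 fold change 2.46 ± 0.75, adjusted p = 0.0363), against 2.05 ± 1.23 and adjusted p = 0.383 with it. It was the 1 member of 9 called without that library, when 26.7% of all genes were called. Over the 16 libraries the r with the summed large-fibre neuron markers was 0.78 for *Scn8a*, 0.76 for *Scn1a*, 0.58 for *Scn4b* and 0.50 for *Scn2a1*. It was -0.085 for *Scn10a* and 0.048 for *Scn11a*, and 0.040 to 0.11 for the other members. With the summed nociceptor markers r was 0.75 for *Scn2b* and 0.68 for *Scn10a*, and 0.14 to 0.49 for the others, with *Scn11a* at 0.49 and *Scn1a* at 0.44. These are descriptions of points that share their library. *Scn3a*, the gene of Nav1.3, had the lowest mean of the members, 0.407 RPKM. It had 3 reads or fewer in 5 of 16 libraries and at most 24.5 CPM, in NG/JG library 3, so that differences between ganglia were not detectable at this depth and spread.

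Of the beta subunits, *Scn2b*, whose product binds the alpha subunit by a disulfide bond, was at 40.1, 102, 253 and 16.9 CPM in L3–L5 DRG and 28.4, 21.9, 10.9 and 14.7 CPM in T10-L1 DRG. It was at 68.3, 34.4, 144 and 0.103 CPM in NG/JG and 31.4, 41.7, 81.8 and 8.25 CPM in TG. L3–L5 DRG library 4 fell within the range of T10-L1 DRG and the other 3 lay above it. The fitted difference was the largest of the 9 members between the DRG levels (log2 fold change 2.45 ± 0.77 (SE), unadjusted p = 0.0100, adjusted p = 0.785 by edgeR), and TG against T10-L1 DRG gave a log2 fold change 1.499 ± 0.67 (SE) (unadjusted p = 0.0475, adjusted p = 0.225 by edgeR). Scaled to the summed sensory neuron markers instead of by TMM, the first became 0.94 ± 0.75. *Scn4b*, whose product binds in the same way and is linked to resurgent current, was at 2.92, 13.9, 0.138 and 0.103 CPM in NG/JG. It was at 51.1, 38.2, 68.7 and 14.4 CPM in T10-L1 DRG, 15.9, 0.496, 55.6 and 68.0 CPM in L3–L5 DRG and 1.40, 46.8, 32.3 and 62.3 CPM in TG. Every NG/JG library was below every T10-L1 DRG library, and NG/JG libraries 3 and 4 had a single read each. The share of all genes that separate a pair of ganglia in this way was not counted, so this separation has no background beside it. By edgeR the difference did not pass (log2 fold change -3.30 ± 1.504 (SE), unadjusted p = 0.0538, adjusted p = 0.865).

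Over all 9 members, none passed an adjusted p of 0.05 by edgeR's quasi-likelihood test in any of the 6 comparisons, and the background of genes that did was low in all but one. It was 0% of the genes tested for L3–L5 DRG against T10-L1 DRG, 0.0322% for NG/JG against T10-L1 DRG, 0% for NG/JG against L3–L5 DRG, 5.87% for TG against T10-L1 DRG, 0% for TG against L3–L5 DRG and 0.051% for TG against NG/JG. At an unadjusted p under 0.05 the members numbered 1 of 9 for L3–L5 against T10-L1 DRG (background 6.07%), 2 for NG/JG against T10-L1 DRG (5.91%) and 2 for NG/JG against L3–L5 DRG (6.04%). They numbered 2 for TG against T10-L1 DRG (21.6%), 2 for TG against L3–L5 DRG (18.2%) and 0 for TG against NG/JG (10%). In the test for any difference among the 4 ganglia on all 16 libraries, 0 of 9 passed the adjusted threshold (background 3.01%) and 2 had an unadjusted p under 0.05 (background 17.5%), *Scn10a* (adjusted p = 0.0773) and *Scn11a* (adjusted p = 0.207). DESeq2 called *Scn10a* in that test (adjusted p = 0.00945), against 9.05% of all genes fitted. In the pairs DESeq2 called 1 of 9 members for TG against T10-L1 DRG, where it called 11.6% of all genes, and 2 for TG against L3–L5 DRG, where it called 8.12%. It called 0 members in the other 4 pairs, with 0.387% of all genes for L3–L5 against T10-L1 DRG, 4.91% for NG/JG against T10-L1 DRG, 4.18% for NG/JG against L3–L5 DRG and 4.85% for TG against NG/JG. These DESeq2 shares are of all genes with a fitted fold change, those of low counts included. The edgeR shares are of genes that passed the filter, so the bases differ and the DESeq2 shares are lower for it. The median SE of the members for L3–L5 against T10-L1 DRG was 0.88 on the log2 scale, and 0.57 over all genes tested.

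**Figure D4:**
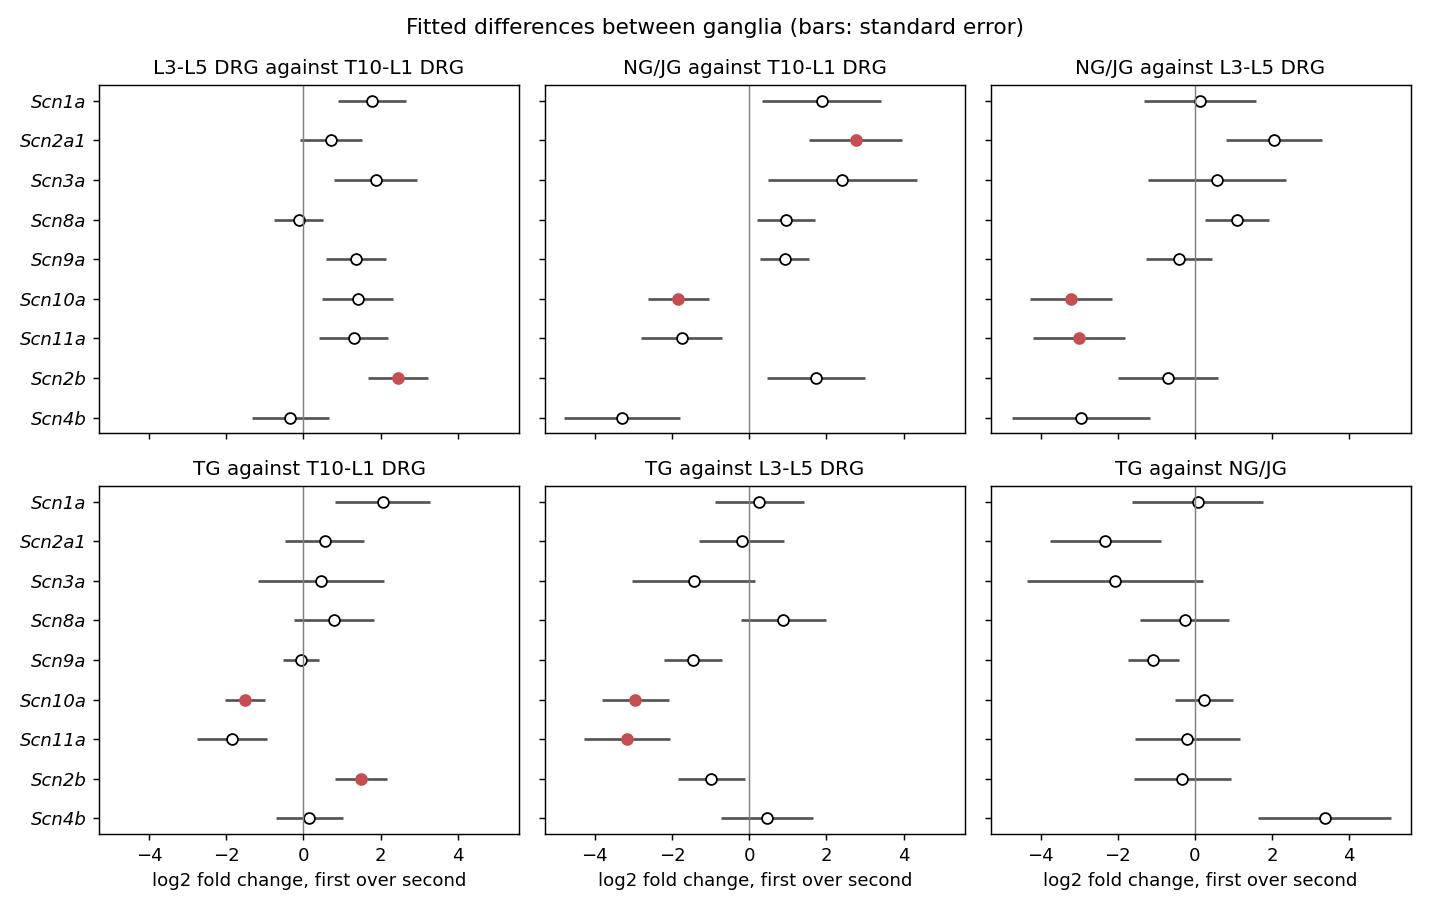
Fitted log2 fold change (points) with its SE (bars) for the 9 members in the 6 comparisons of ganglia, first ganglion over second, by edgeR. Filled red points have an unadjusted p under 0.05 and none passes after adjustment. *Scn10a* and *Scn11a* lie left of 0 in the 4 comparisons of TG or NG/JG with DRG.

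The subunits *Scn7a*, *Scn3b* and *Scn4a* were read for context. *Scn7a*, whose product is a sodium-sensing channel that voltage does not gate and that glia also express, had the highest level of these, a mean of 61.7 RPKM, and ranged over 323 to 978 CPM in T10-L1 DRG, 185 to 547 CPM in L3–L5 DRG, 125 to 853 CPM in NG/JG and 229 to 370.2 CPM in TG. *Scn3b*, a beta subunit bound without a disulfide bond, was at 10.03 to 59.4 CPM in TG and 82.8 to 295 CPM in L3–L5 DRG, with edgeR's adjusted p = 0.0961 (log2 fold change -2.25 ± 0.60 (SE)). Against T10-L1 DRG (46.9 to 174 CPM), which overlapped TG, edgeR's adjusted p was 0.0732. Per 1000 CPM of the sensory neuron markers, TG (5.50 to 69.5 CPM) also overlapped L3–L5 DRG (23.1 to 70.7 CPM). *Scn4a*, the skeletal muscle channel gene, had a mean of 0.328 RPKM and 3 reads or fewer in 7 of 16 libraries.

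Of 13 genes whose products anchor or regulate the channels, 11 to 13 passed the filter on low counts in each comparison, and 1 passed the adjusted threshold, in 1 of the 6 comparisons, *Fgf13*, an intracellular fibroblast growth factor homologue that binds the tail of the alpha subunit. It was at 158, 103, 145 and 125 CPM in TG libraries 1 to 4 and 274, 581, 346 and 353 CPM in T10-L1 DRG. It was at 507, 1502, 1485 and 142 CPM in L3–L5 DRG and 68.0, 356, 446 and 213 CPM in NG/JG. *Fgf13* was lower in TG than in T10-L1 DRG (log2 fold change -1.19 ± 0.29 (SE), unadjusted p = 0.00195, adjusted p = 0.0429 by edgeR, in a comparison where 5.87% of all genes passed). The call was lost when any library but TG library 1 was left out (7 of 8 omissions, adjusted p = 0.0744 to 0.145), with all 16 libraries in 1 fit (adjusted p = 0.432) and with the replicate block (adjusted p = 0.129), by edgeR. Scaled to the sensory neuron markers the log2 fold change was -0.84 ± 0.59 (adjusted p = 0.528 by edgeR), and per 1000 CPM of those markers TG (43.5 to 185 CPM) overlapped T10-L1 DRG (103 to 180.1 CPM). Among the 4 ganglia the lowest p of the 13 were those of *Fgf13* (adjusted p = 0.0898), *Fgf14* (adjusted p = 0.176) and *Fgf11* (adjusted p = 0.458), by edgeR. *Fgf14* stood at 86.9 CPM in NG/JG library 3 and at most 8.66 CPM in the others.

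The genes whose levels followed each member most closely were found among 14235 others that passed the filter, by Pearson's r of log2(CPM + 1) over the 16 libraries, and they are descriptions of points that share their library. Those of *Scn10a* were *Ywhag* (r = 0.93, rho = 0.79), *Grik1* (r = 0.93, rho = 0.94) and *Lix1* (r = 0.92, rho = 0.93). Those of *Scn11a* were *Nrn1* (r = 0.94, rho = 0.93), *Grik1* (r = 0.92, rho = 0.91) and *Ppp1r1c* (r = 0.92, rho = 0.83), so that *Grik1*, a kainate receptor subunit gene, was in both. For *Scn9a* they were *Mtap7* (r = 0.87, rho = 0.76), *Rgs7* (r = 0.86, rho = 0.83) and *Dbc1* (r = 0.85, rho = 0.80). For *Scn8a* they were *Ckmt1* (r = 0.93, rho = 0.83), *Resp18* (r = 0.92, rho = 0.87) and *Nme7* (r = 0.89, rho = 0.64), and for *Scn1a* *Ttbk1* (r = 0.87, rho = 0.87), *Xpa* (r = 0.87, rho = 0.84) and *Fam155a* (r = 0.87, rho = 0.82). For *Scn2a1* they were *Ankrd16* (r = 0.84, rho = 0.73), *Eif2d* (r = 0.83, rho = 0.78) and *Col24a1* (r = 0.83, rho = 0.74), and for *Scn3a* *Zfp93* (r = 0.91, rho = 0.87), *Rnf182* (r = 0.89, rho = 0.86) and *AW551984* (r = 0.88, rho = 0.85). For *Scn2b* they were *Snhg11* (r = 0.89, rho = 0.83), *Prrt2* (r = 0.87, rho = 0.72) and *5830418K08Rik* (r = 0.87, rho = 0.85), and for *Scn4b* *Tesc* (r = 0.91, rho = 0.86), *Ano4* (r = 0.89, rho = 0.90) and *C130071C03Rik* (r = 0.89, rho = 0.88).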

How the data were processed

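RNA-seq counts of 16 libraries of sorted Pirt/TdTomato+ neurons were used, with 4 libraries per ganglion and groups taken from the labels. The authors sequenced single reads of SMART-seq2 cDNA, aligned them with TopHat2 to mm9 and counted them per gene symbol with HTSeq, and they deposited these raw counts without normalization. The strand setting, the annotation and the tool versions are not given in the sources used here. Reads that HTSeq left uncounted, among them those aligned to several places, are not in any value. Depth was 4735624 to 13333318 reads on genes. No 2 libraries of a ganglion agreed within sampling noise (chi-square per gene 29.9 or more).

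CPM was computed from the summed reads on genes, and RPKM used the union of annotated exons in GENCODE M1 on NCBIM37. For every comparison of 2 ganglia, the 8 libraries concerned were fitted in edgeR 4.0.16 under R 4.3.3 (TMM factors, filterByExpr, quasi-likelihood fit and test, Benjamini-Hochberg adjustment over all genes tested), with group as the only term, and all 16 libraries by the same test with 3 degrees of freedom. The SE was the log2 fold change divided by the square root of F. DESeq2 1.42.0 was the main alternative, and RLE factors, no filter, a joint fit, a block on the replicate number, omission of single libraries and other gene lengths were also tried. Setting aside the 3 libraries of lowest neuron markers and scaling to those markers were chosen after seeing the data. The fits were tested on simulated data. Some subunit genes and a sequence are not reported here. All 9 members were named in every comparison, of the 13 partners those that passed and the 3 of lowest p among the ganglia, and for each member the 3 genes of highest r. The members and lists were chosen with earlier results of these data known. Python 3.11.15 and matplotlib 3.10.9 drew the plots.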

Additional observations from a re-analysis of the deposited data

Results flagged for a closer look

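In 40 sets of 4 libraries (the CPM of each member in each ganglion, and the share of *Scn10a* and *Scn11a*), 2 had 1 library whose gap to the nearest was over Dixon's critical share of the whole range. Chance alone gives such a gap in about 0.05 of sets of 4 normal values. CPM values need not be normal and the sets share libraries, so that rate need not hold here. Both were *Scn8a*. In L3–L5 DRG, library 3 was at 67.7 CPM, with the nearest at 22.2 CPM and the gap 0.873 of the range. In NG/JG, library 3 was at 144 CPM, with the nearest at 41.4 CPM and the gap 0.865 of the range. L3–L5 DRG library 3 had the highest sensory neuron marker sum of all libraries, 10500.5 CPM, and NG/JG library 3 the highest of NG/JG, 4579 CPM, and the part of these in the result was not tested.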

How the results depend on the processing

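edgeR called 0 genes for L3–L5 DRG against T10-L1 DRG, 4 for NG/JG against T10-L1 DRG, 0 for NG/JG against L3–L5 DRG, 758 for TG against T10-L1 DRG, 0 for TG against L3–L5 DRG, 6 for TG against NG/JG and 429 for any difference among the 4 ganglia, and no member in any of them. DESeq2 called 78 genes (L3–L5 DRG against T10-L1 DRG), 909 genes (NG/JG against T10-L1 DRG), 819 genes (NG/JG against L3–L5 DRG), 2199 genes (TG against T10-L1 DRG), 1 member (TG against T10-L1 DRG), 1612 genes (TG against L3–L5 DRG), 2 members (TG against L3–L5 DRG), 854 genes (TG against NG/JG), 1851 genes (any difference among the 4 ganglia), 1 member (any difference among the 4 ganglia). Without the filter on low counts the calls became 9 genes (NG/JG against T10-L1 DRG), 2 genes (NG/JG against L3–L5 DRG), 427 genes (TG against T10-L1 DRG), 39 genes (TG against L3–L5 DRG), 56 genes (TG against NG/JG), 241 of 20459 genes (any difference among the 4 ganglia), 1 member of 9 (any difference among the 4 ganglia). With all 16 libraries in 1 fit they became 54 genes (NG/JG against T10-L1 DRG), 83 genes (NG/JG against L3–L5 DRG), 238 genes (TG against T10-L1 DRG), 206 genes (TG against L3–L5 DRG), 484 genes (TG against NG/JG). Without the 3 libraries of lowest neuron markers they became 1 gene (NG/JG against T10-L1 DRG), 3583 of 13410 genes (TG against T10-L1 DRG), 1 member of 9 (TG against T10-L1 DRG), 2564 of 13204 genes (TG against L3–L5 DRG), 2 members of 9 (TG against L3–L5 DRG), 336 genes (TG against NG/JG), 1564 of 14487 genes (any difference among the 4 ganglia), 2 members of 9 (any difference among the 4 ganglia), and scaled to those markers 0 genes (TG against T10-L1 DRG), 1 gene (TG against NG/JG), 12 genes (any difference among the 4 ganglia). The causes were not tested. RLE factors moved none of these counts by over 1.5 times.

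Same-numbered libraries share only a number: their deviations from the group means correlated at -0.117 to 0.169, and only for NG/JG against L3–L5 DRG did every library correlate best with its own number, a hint from the data and not from the design. With the replicate block the calls became 0 genes (NG/JG against T10-L1 DRG), 0 genes (TG against T10-L1 DRG), 1 gene (TG against NG/JG), 184 genes (any difference among the 4 ganglia), with the direction turned for *Scn1a* -0.47 (NG/JG against L3–L5 DRG), *Scn3a* -2.07 (NG/JG against L3–L5 DRG), *Scn9a* 0.015 (NG/JG against L3–L5 DRG), *Scn3a* -1.11 (TG against T10-L1 DRG), *Scn4b* -0.23 (TG against T10-L1 DRG), *Scn1a* -0.42 (TG against L3–L5 DRG), *Scn2b* 0.66 (TG against NG/JG).

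Leaving out each library in turn called members only for TG against T10-L1 DRG and in the test among the 4 ganglia, and the ranges were 0 to 0 (L3–L5 DRG against T10-L1 DRG, genes called), 0 to 2 (NG/JG against L3–L5 DRG, genes called), 1 to 5 (NG/JG against T10-L1 DRG, genes called), 0 to 2038 (TG against L3–L5 DRG, genes called), 1 to 325 (TG against NG/JG, genes called), 0 to 3583 (TG against T10-L1 DRG, genes called), 0 to 1 (TG against T10-L1 DRG, members called), 33 to 1035 (any difference among the 4 ganglia, genes called), 0 to 1 (any difference among the 4 ganglia, members called), 77.3 to 87.0% (share of *Scn10a* and *Scn11a*, L3–L5 DRG), 31.2 to 50.0% (share of *Scn10a* and *Scn11a*, NG/JG), 79.9 to 86.7% (share of *Scn10a* and *Scn11a*, T10-L1 DRG), 56.3 to 63.2% (share of *Scn10a* and *Scn11a*, TG). In the comparisons with TG the highest counts came without TG library 1. For TG against T10-L1 DRG, 0 genes were called without TG library 2 or 3 or T10-L1 DRG library 1 or 2. The member called in the test among ganglia was *Scn10a*, without L3–L5 DRG library 4, when 427 of 14530 genes were called. Without length correction the share of *Scn10a* and *Scn11a* was 73.0% in T10-L1 DRG, 71.0% in L3–L5 DRG, 29.3% in NG/JG, 46.4% in TG.

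Log2 fold changes of members that turned direction, none past the threshold, were *Scn8a* 0.097 (L3–L5 DRG against T10-L1 DRG), *Scn9a* 0.13 (TG against T10-L1 DRG), *Scn2a1* 0.0049 (TG against L3–L5 DRG), *Scn10a* -0.036 (TG against NG/JG) without the 3 libraries, *Scn10a* -0.021 (L3–L5 DRG against T10-L1 DRG), *Scn11a* -0.13 (L3–L5 DRG against T10-L1 DRG), *Scn4b* 0.046 (L3–L5 DRG against T10-L1 DRG), *Scn9a* 0.79 (NG/JG against L3–L5 DRG), *Scn2b* 0.57 (NG/JG against L3–L5 DRG), *Scn9a* 0.098 (TG against T10-L1 DRG), *Scn4b* -0.079 (TG against T10-L1 DRG), *Scn2a1* 0.080 (TG against L3–L5 DRG), *Scn9a* 0.076 (TG against L3–L5 DRG), *Scn2b* 0.51 (TG against L3–L5 DRG), *Scn4b* -0.13 (TG against L3–L5 DRG), *Scn1a* -0.21 (TG against NG/JG), *Scn11a* 0.50 (TG against NG/JG) scaled to the markers, *Scn4b* -0.094 (TG against T10-L1 DRG), *Scn1a* -0.084 (TG against NG/JG) without the filter, *Scn1a* -0.034 (TG against NG/JG) with RLE factors and *Scn1a* -0.035 (TG against NG/JG) by DESeq2. Over the libraries left out in turn, the ranges that crossed 0 were -0.24 to 0.80 for *Scn10a* (TG against NG/JG), -0.93 to 0.46 for *Scn11a* (TG against NG/JG), -0.63 to 0.65 for *Scn1a* (NG/JG against L3–L5 DRG), -0.29 to 0.78 for *Scn1a* (TG against L3–L5 DRG), -0.48 to 0.81 for *Scn1a* (TG against NG/JG), -0.74 to 0.41 for *Scn2a1* (TG against L3–L5 DRG), -0.013 to 0.94 for *Scn2a1* (TG against T10-L1 DRG), -1.53 to 0.30 for *Scn2b* (NG/JG against L3–L5 DRG), -1.60 to 0.0093 for *Scn2b* (TG against L3–L5 DRG), -0.93 to 0.50 for *Scn2b* (TG against NG/JG), -0.43 to 1.00 for *Scn3a* (NG/JG against L3–L5 DRG), -0.26 to 1.41 for *Scn3a* (TG against T10-L1 DRG), -0.84 to 0.070 for *Scn4b* (L3–L5 DRG against T10-L1 DRG), -0.23 to 0.56 for *Scn4b* (TG against T10-L1 DRG), -0.93 to 0.43 for *Scn8a* (L3–L5 DRG against T10-L1 DRG), -0.89 to 0.54 for *Scn8a* (TG against NG/JG), -1.07 to 0.054 for *Scn9a* (NG/JG against L3–L5 DRG), -0.34 to 0.19 for *Scn9a* (TG against T10-L1 DRG). With 4 libraries a group and this spread, a difference that did not pass is not shown to be absent, and counts near the floor of 3 reads (*Scn3a*) limit what can be seen.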
